A study of Mus musculus with 3 samples.

Results

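The miR-200 family, taken here as every listed arm of miR-200a, miR-200b, miR-200c, miR-141 and miR-429, accounted for 9 of the 693 mature miRNAs listed in mouse TAG1 ES cells. Arms were taken by name. All 5 hairpins had a listed 3p arm, and 4 of the 5 had a listed 5p arm as well. miR-200c-5p was not among the listed miRNAs, of which each had at least 10 reads over the 3 libraries.

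Short RNA was sequenced in 3 conditions with 1 library each. The 0 hr library came from untreated cells grown in medium with foetal bovine serum, a source of TGF-β ligands. For the 16 hrs SB library, cells spent 16 hrs in 30 µM of the Alk4/5/7 receptor inhibitor SB, written SB-431541 in the labels and SB-431542 in the methods, which prevents phosphorylation of Smad2/3. The 16+12 hrs library came from cells that had the same 16 hrs of SB and then 12 hrs of 1 µg/µl doxycycline (Dox), which switches on a constitutively active Alk4* receptor in this line. All the cells were of the TAG1 line, an engineered derivative of J1 ES cells, so the receptor was driven by a transgene in 1 line. Treated cells were in knockout serum replacement, so medium and treatment cannot be told apart in either comparison with 0 hr. The comparison of 16+12 hrs with 16 hrs SB holds the medium constant. There SB was followed by Dox, so the end of the SB treatment, the receptor, Dox itself and the longer time in culture cannot be told apart.

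Levels are in rpm, reads per 1000000 reads of the library. One read was worth 0.0913, 0.0881 and 0.101 rpm in the 0 hr, 16 hrs SB and 16+12 hrs libraries, which corresponds to totals between 9895513 and 11354692 reads. These totals are those implied by the values and differ from the totals stated in the study, so the shares of reads that follow refer to the implied totals. Listed miRNAs took 28.3%, 24.1% and 33.4% of these reads, and other sets of 3 values follow the same order of libraries. All intervals are 95% intervals for counting error. As the reads carried no molecular identifiers, a read is not an independent molecule. No replicate existed for any condition, so no test of a condition was possible. A difference in level also cannot separate fewer cells that express a miRNA from less of it per cell.

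The miR-200 family is known as a keeper of the epithelial state. Its members bind the transcripts of Zeb1 and Zeb2, transcription factors that repress E-cadherin, and the Zeb factors in turn repress the miR-200 genes. In epithelial cells, prolonged TGF-β is known to lower the family during the epithelial-mesenchymal transition. ES cells are themselves epithelial in character, and Nodal and Activin signal through Smad2/3 in them.

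The family comes from a pair of short clusters, both on the minus strand in GRCm38.p6. The hairpins of miR-200b, miR-200a and miR-429 lie within 1846 bases at chr4:156053905-156055750, inside an intron of the protein-coding gene Ttll10 and inside the non-coding transcript Gm13648. The miR-429 hairpin overlaps an exon of Gm13648. Those of miR-200c and miR-141 lie within 477 bases at chr6:124717914-124718390, inside the non-coding gene Gm15884 and outside its exons, and the miR-141 hairpin also overlaps an exon of the unclassified gene Gm29008. The closest other gene to the miR-141 hairpin was Phb2, 964 bases away on the opposite strand.

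The mature sequences of the 3p arms are shown because their seeds divide the family across the clusters. Capitals mark the seed, bases 2 to 8 counted from the 5′ end, which sets most of the target choice of a miRNA. The sequences are from RefSeq on GRCm38.p6, where all 10 arms looked up were found.
miR-200b-3p: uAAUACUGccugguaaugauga
miR-200c-3p: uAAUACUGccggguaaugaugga
miR-429-3p: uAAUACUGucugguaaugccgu
miR-200a-3p: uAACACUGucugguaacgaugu
miR-141-3p: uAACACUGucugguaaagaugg

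The 3p arms carried 2 distinct seeds. miR-200b-3p, miR-200c-3p and miR-429-3p shared the seed AAUACUG, and miR-200a-3p and miR-141-3p shared the seed AACACUG. Between miR-200b-3p and miR-200a-3p, the change within the seed was U4C, with positions counted from 1 at the 5′ end. No mature miRNA outside the family had either seed among the 1674 distinct mature sequences of the table. Each cluster therefore makes both kinds of seed.

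The near-identity of these arms bears on how reads were assigned. miR-200a-3p and miR-141-3p have the same base at 20 of 22 positions, with C17A and U22G the only changes. Their longest shared stretch was 16 bases, shorter than the 17 bases of the shortest read aligned, and alignments allowed no mismatch. miR-200b-3p and miR-200c-3p also had the same base at 20 of 22 positions, with U11G and A22G, and shared at most 10 bases in a row. None of the 9 arms had the same values as another listed miRNA in all libraries, which 37 of the 693 listed miRNAs did.

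The listed 5p arms, the passenger side of most of these hairpins, are shown for comparison with miR-200b-5p, which rose with the 3p arms.
miR-200b-5p: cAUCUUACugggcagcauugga
miR-200a-5p: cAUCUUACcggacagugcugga
miR-141-5p: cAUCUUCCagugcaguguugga
miR-429-5p: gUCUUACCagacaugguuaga

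miR-200b-5p and miR-200a-5p shared a seed, while those of miR-141-5p and miR-429-5p were different. The mature arms of the family were 21 to 23 bases long, so levels of arms were set side by side without a correction for length.

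The summed level of the family was 692 rpm (677 to 708) in untreated cells, 425 rpm (413 to 437) with SB and 1151 rpm (1130 to 1173) after Dox. It was thus lowest with SB and highest after Dox, and none of the 3 intervals overlapped another. The family made up 0.244%, 0.176% and 0.345% of the reads on listed miRNAs. It was a minor component of these cells beside the ES cell cluster miR-290 to miR-295, whose 14 listed arms summed to 81786, 65119 and 93758 rpm.

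miR-200a-3p, the most abundant arm, was at 390 rpm in untreated cells, 232 rpm with SB and 709 rpm after Dox. It ranked 84th, 102nd and 64th among the listed miRNAs. miR-200c-3p, the main product of the chromosome 6 cluster, was at 132, 75.9 and 156 rpm. miR-200b-3p, from the same cluster as miR-200a-3p, was at 87.8, 61.8 and 174 rpm. In these 3 arms 16 hrs SB was the lowest library. By the values of the authors 16+12 hrs was the highest, which for miR-200c-3p depended on the scaling of the libraries.

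miR-429-3p, the last hairpin of the chromosome 4 cluster, was at 62.1, 41.4 and 66.2 rpm, so that its levels at 0 hr and at 16+12 hrs lay close together. miR-141-3p, which has the seed of miR-200a-3p, was the rarest 3p arm with 5.57, 3.43 and 8.69 rpm, from 61, 39 and 86 reads. Its hairpin lies beside that of miR-200c, yet miR-200c-3p had 23.7, 22.1 and 17.97 reads for each read of miR-141-3p in the 3 libraries.

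Among the 5p arms, miR-200b-5p was at 11.7, 7.49 and 31.7 rpm. The other 5p arms were rare. miR-141-5p had 16, 13 and 23 reads, miR-200a-5p had 17, 12 and 15, and miR-429-5p had 5, 2 and 14. With so few reads, 5 of the 9 arms had under 100 reads in at least 1 library, and these were the arms below miR-429-3p in level.

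**Figure D1:**
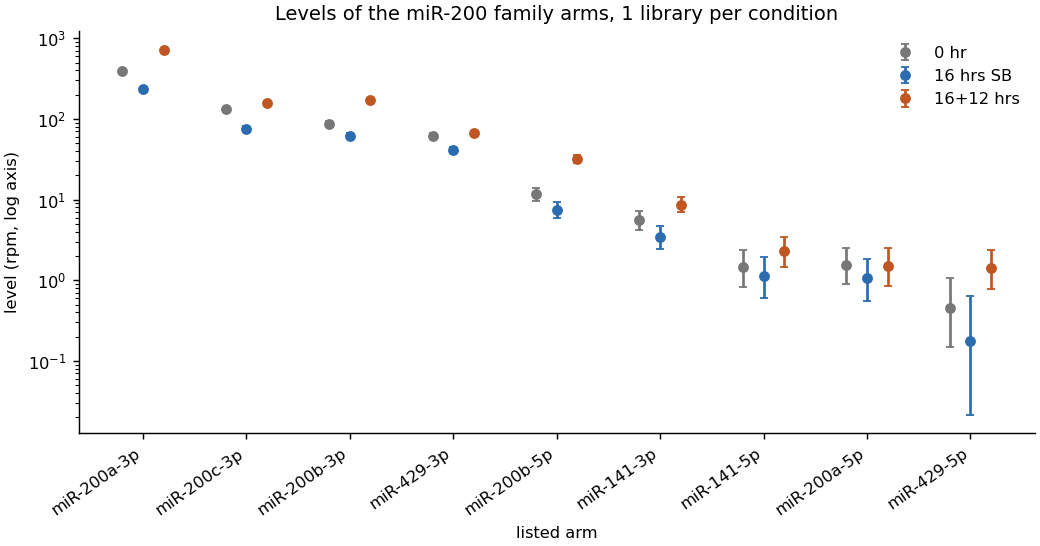
Level of each listed arm (rpm, log axis) in the 0 hr, 16 hrs SB and 16+12 hrs libraries, 1 library each; points are levels and bars are 95% Poisson intervals for counting error. miR-200a-3p stands above all other arms in each library, the 16 hrs SB point is the lowest of every arm, and the bars widen for arms under about 10 rpm.

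At 0 hr and at 16 hrs SB the order of levels was miR-200a-3p, miR-200c-3p, miR-200b-3p, miR-429-3p, miR-200b-5p and miR-141-3p, and no neighbours among these 6 arms had overlapping intervals. miR-200a-5p and miR-141-5p, the next in order, could not be ranked against each other in any library. At 16+12 hrs, miR-200b-3p with 174 rpm (166 to 182) stood above miR-200c-3p with 156 rpm (148 to 164), the reverse of their order in the other libraries. Other neighbours down to miR-141-3p kept their order.

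The question of the comparison of 16 hrs SB with 0 hr was which miRNAs fall when Smad2/3 phosphorylation is blocked. A miRNA was called changed by the criteria of the study. These ask for a log2 ratio of 0.32 or more in size and a Z-score outside the central 95% of a normal distribution, where the Z-score compares the reads of 2 libraries and not the conditions. Lower calls were made for 6 of the 9 arms and higher calls for none, beside 30.2% of all listed miRNAs called lower and 15.3% called higher. The median log2 ratio of the 9 arms was -0.64, against -0.19 over all 693 miRNAs, and all 9 arms lay below that median.

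The summed family fell by 0.70 on the log2 scale (interval -0.76 to -0.65), a ratio of 0.614. The log2 ratio was -0.79 (-0.92 to -0.67) for miR-200c-3p, -0.75 (-0.82 to -0.68) for miR-200a-3p and -0.70 (-1.32 to -0.09) for miR-141-3p. For miR-429-3p it was -0.58 (-0.76 to -0.41) and for miR-200b-3p, the arm with the smallest fall among them, -0.51 (-0.65 to -0.36). The lower calls of miR-200b-3p and miR-141-3p were each lost under 3 of 5 other scalings of the libraries, where their ratios came down to -0.24 and -0.47.

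miR-200b-5p was called lower too, with a log2 ratio of -0.64 (-1.06 to -0.24). The rarer 5p arms did not meet the criteria. Their log2 ratios were -0.35 (-1.53 to 0.80) for miR-141-5p, -0.55 for miR-200a-5p and -1.37 (-4.77 to 1.24) for miR-429-5p, and a change of the size seen in the 3p arms was not detectable at this depth.

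The comparison of 16+12 hrs with 16 hrs SB was made by the study to find miRNAs that rise once Smad2/3 are activated through Alk4*. Higher calls were made for 8 of the 9 arms and lower calls for none, beside 41.7% of all listed miRNAs called higher and 17.9% called lower. The 8 include miR-429-5p, which was listed only through its 16+12 hrs reads, so the listing favoured its call. The median log2 ratio was 1.34 for the 9 arms and 0.38 over all miRNAs, and all 9 arms lay above the latter. The sum of the family was 2.71-fold higher (2.62 to 2.80), a log2 ratio of 1.44 (1.39 to 1.49).

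The rise was unequal among the 3p arms. miR-200a-3p was 3.05-fold higher, a log2 ratio of 1.61 (1.55 to 1.68), and 70 of the listed miRNAs had a higher ratio. miR-200b-3p was 2.81-fold higher, with a log2 ratio of 1.49 (1.36 to 1.62). miR-141-3p was 2.53-fold higher on few reads, 1.34 (0.78 to 1.92).

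The other 3p arms rose less. miR-200c-3p was 2.06-fold higher, with a log2 ratio of 1.04 (0.92 to 1.16). miR-429-3p was 1.60-fold higher, 0.68 (0.50 to 0.85), and its interval did not meet that of miR-200a-3p, miR-200b-3p or miR-200c-3p. A higher ratio than that of miR-429-3p was found for 253 listed miRNAs. The higher call of miR-429-3p was lost under 4 of 5 other scalings, with log2 ratios from 0.21 to 0.68 over all 6.

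Among the 5p arms, miR-200b-5p was 4.24-fold higher, with a log2 ratio of 2.08 (1.73 to 2.45). This exceeded the ratio of miR-200b-3p from the same hairpin, whose interval it did not meet. miR-429-5p had the highest ratio of the family, 3.01 (0.88 to 6.19), from 2 and 14 reads. That arm was listed only through its reads after Dox. miR-141-5p was called higher with 1.02 (-0.02 to 2.13), an interval that includes 0, and lost the call under all 5 other scalings. miR-200a-5p was not called with 0.52 (-0.67 to 1.75).

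Requiring both changes at once, lower with SB and higher after Dox, gives the p-Smad2/3 activation profile of the study. It was met by 6 of the 9 arms, namely the 5 3p arms and miR-200b-5p, beside 20.9% of all listed miRNAs. The study then kept only the most abundant miRNAs with this profile and checked some of these by qPCR. No arm of the family was among those kept. The opposite profile was met by none of the 9 arms, beside 9.67% of all. Both ratios use the 16 hrs SB library, so an unusual value in that library would move them in opposite directions.

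**Figure D2:**
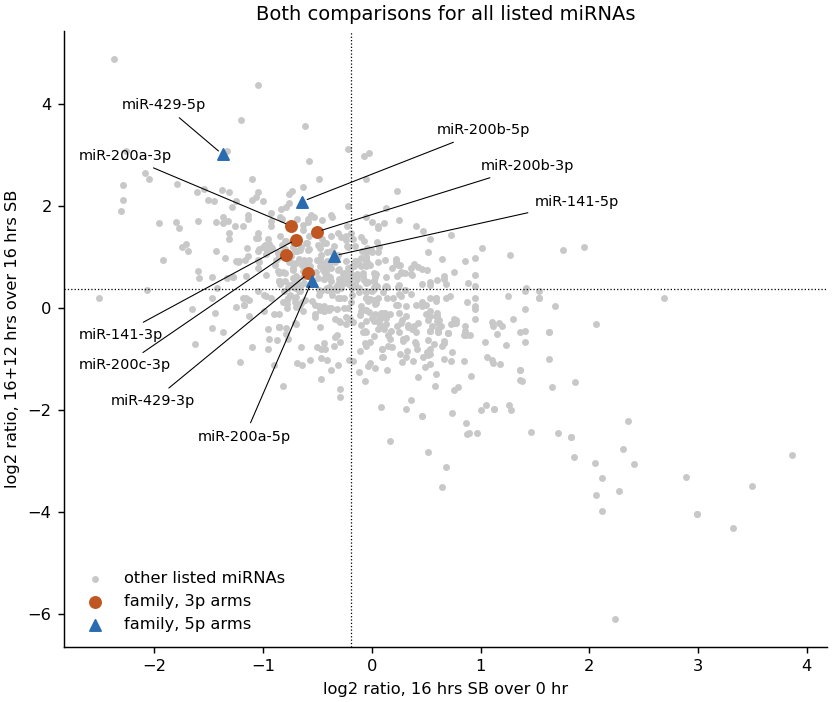
Log2 ratio of 16+12 hrs over 16 hrs SB against that of 16 hrs SB over 0 hr for the 693 listed miRNAs; circles are the 3p arms and triangles the 5p arms of the family, grey points the 684 others and dotted lines the medians of all. The 9 arms lie left of the vertical median of -0.19 and above the horizontal median of 0.38. Both axes share the 16 hrs SB library, and its part in the shape of the cloud was not tested.

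Whether Dox brought the family back to or beyond its untreated level depended on the arm. The sum at 16+12 hrs was 1.66-fold that at 0 hr (1.62 to 1.71). Higher calls were made for 5 of the 9 arms and lower calls for none, beside 30.6% called higher and 19.8% called lower of all listed miRNAs. miR-200b-3p was 1.98-fold higher than at 0 hr, a log2 ratio of 0.99 (0.87 to 1.10), and miR-200a-3p was 1.82-fold higher, 0.86 (0.81 to 0.92).

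miR-200b-5p stood 1.44 (1.14 to 1.75) above 0 hr on the log2 scale and miR-141-3p 0.64 (0.15 to 1.14). The fifth arm called was miR-429-5p, with 1.63 (0.08 to 3.46) from 5 and 14 reads. It was listed only through its 14 reads after Dox, so the listing favoured this call. Among the 5 other scalings, the call of miR-141-3p was lost under 4 and that of miR-429-5p under 3. miR-200c-3p, at 0.25 (0.14 to 0.35), and miR-429-3p, at 0.09 (-0.06 to 0.25), did not meet the criteria. Their ratios changed sign between scalings of the libraries, from -0.06 to 0.25 for miR-200c-3p and from -0.21 to 0.09 for miR-429-3p, so no direction is given for either.

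The libraries differed in the share of reads on listed miRNAs, so the ratios were recomputed with 5 other scalings. These moved the median of all miRNAs from -0.19 to between -0.44 and 0.04 for 16 hrs SB over 0 hr, and from 0.38 to between -0.09 and 0.32 for 16+12 hrs over 16 hrs SB. Relative to that median, the summed family stood at -0.51 with SB and at 1.06 after Dox by the values of the authors. The 4 scalings that multiply a library by 1 factor must give the same differences, as they move the family and the median alike. Under quantile normalization, where the differences could change, they were -0.47 and 1.08.

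Under all 6 scalings, all 9 arms had a log2 ratio below 0 with SB and above 0 after Dox, with miR-429-5p listed only through its 16+12 hrs reads. In direction alone, 60.5% of all listed miRNAs were lower with SB and 63.2% higher after Dox by the values of the authors. Between 16+12 hrs and 0 hr, 8 of the 9 arms were higher in direction alone by those values, beside 58.6% of all, and 6 or 7 of the 9 were so under the 5 other scalings. The log2 ratio of miR-200a-3p after Dox ranged from 1.14 to 1.61. The number of arms with the activation profile depended on the scaling, as it fell from 6 to 3 when libraries were scaled to the reads on listed miRNAs or by TMM (trimmed mean of ratios). The 3 arms were miR-200a-3p, miR-200c-3p and miR-200b-5p in both cases, beside 11.5% and 12.1% of all listed miRNAs.

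**Figure D3:**
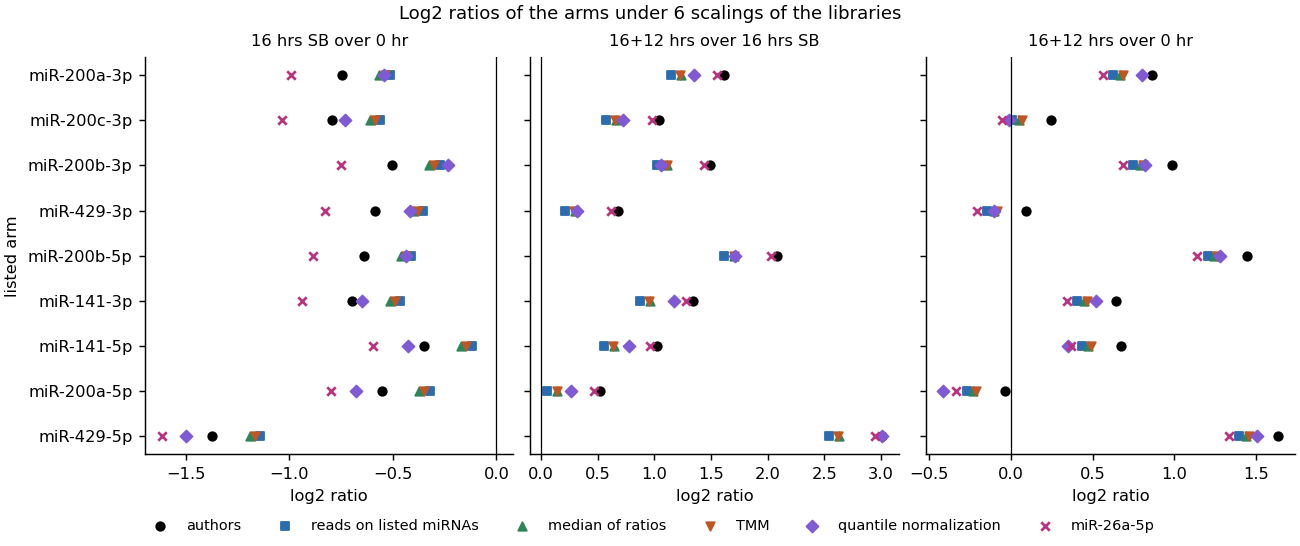
Log2 ratio of each arm in the 3 comparisons under 6 scalings of the libraries (symbols), with 0 marked by a line. All symbols lie left of 0 for 16 hrs SB over 0 hr and right of 0 for 16+12 hrs over 16 hrs SB, while those of miR-200c-3p and miR-429-3p lie on both sides of 0 for 16+12 hrs over 0 hr.

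Ratios between arms within a library do not depend on its scaling. In the 3p reads of the family, the chromosome 4 cluster held 79.7% (78.8 to 80.6) in untreated cells, 80.9% (79.7 to 82.0) with SB and 85.2% (84.5 to 85.9) after Dox. Between 0 hr and 16 hrs SB the odds ratio was 1.08 (0.98 to 1.18), an interval that includes 1. After Dox the odds were 1.36 times those at 16 hrs SB (1.24 to 1.49), as miR-200a-3p and miR-200b-3p rose more than miR-200c-3p.

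The summed chromosome 4 cluster, 5p arms included, was at 554, 344 and 984 rpm, and its log2 ratio after Dox was 1.52 (1.46 to 1.57). The chromosome 6 cluster was at 139, 80.5 and 167 rpm, with 1.05 (0.94 to 1.17). With SB their log2 ratios were -0.69 and -0.79. The clusters therefore stood closer together in the comparison with SB than after Dox.

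The 3p arms of 1 cluster did not move as a unit. Within the 3p reads of the chromosome 4 cluster, miR-429-3p took 11.5% (10.7 to 12.3) at 0 hr and 12.3% (11.3 to 13.4) at 16 hrs SB. At 16+12 hrs it took 6.97% (6.46 to 7.51), and the odds were 0.533 times those at 16 hrs SB (0.469 to 0.605). The share of miR-200b-3p was 16.3%, 18.4% and 18.3%. Its odds ratio was 1.16 (1.04 to 1.30) with SB and 0.993 (0.900 to 1.10) after Dox.

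miR-200a-3p took 72.2%, 69.2% and 74.7% of the cluster's 3p reads. Each read of miR-429-3p was matched by 6.28, 5.61 and 10.7 reads of miR-200a-3p. That ratio was 1.91 times larger after Dox than at 16 hrs SB (1.68 to 2.17). For miR-200b-3p against miR-429-3p the ratio was 1.41, 1.49 and 2.63, a 1.76-fold change after Dox (1.51 to 2.04).

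The same imbalance was present between clusters. For miR-200a-3p against miR-200c-3p the ratio was 2.96, 3.06 and 4.54, a change of 1.48 (1.35 to 1.63) after Dox. The ratio of miR-200b-3p to miR-200c-3p was 0.667, 0.814 and 1.11 (1.04 to 1.19 in the last), and it was the pair whose order switched. It changed with SB by 1.22 (1.07 to 1.39) and after Dox by 1.37 (1.21 to 1.55).

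For miR-200a-3p against miR-200b-3p the ratio was 4.44, 3.76 and 4.08. It changed with SB by 0.846 (0.758 to 0.945), while the interval of its change after Dox, 1.09 (0.98 to 1.20), included 1. Over the 10 pairs of 3p arms, the interval of the change left out 1 in 2 pairs with SB, both with miR-200b-3p, and in 6 pairs after Dox. Between 16+12 hrs and 0 hr it did so in 5 pairs. These intervals were not adjusted for the number of pairs. The share among pairs of other listed miRNAs was not computed, so the counts alone do not set the family apart.

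The pairs that include miR-141-3p had wide intervals. Its share of the chromosome 6 3p reads was 4.06%, 4.33% and 5.27%, and the odds after Dox were 1.23 times those at 16 hrs SB (0.82 to 1.86). A change from miR-200c-3p was thus not detectable at this depth. Only the ratio of miR-429-3p to miR-141-3p left out 1 after Dox, at 0.632 (0.414 to 0.952).

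The balance of seeds moved with miR-200a-3p. Arms with the seed AACACUG held 58.4% (57.3 to 59.5) of the 3p reads in untreated cells, 56.8% (55.4 to 58.2) with SB and 64.4% (63.5 to 65.3) after Dox. The odds after Dox were 1.38 times those at 16 hrs SB (1.28 to 1.48). In level, these arms summed to 396, 236 and 718 rpm, and those with the seed AAUACUG to 282, 179 and 396 rpm.

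The arms of a hairpin were compared where the reads allowed. In the reads of the miR-200b hairpin, the 5p arm took 11.7% (9.89 to 13.8) in untreated cells, 10.8% (8.72 to 13.2) with SB and 15.4% (13.9 to 17.1) after Dox. The odds after Dox were 1.51 times those at 16 hrs SB (1.16 to 1.97). The 5p arm took 0.396%, 0.453% and 0.213% of the miR-200a hairpin and 20.8%, 25.0% and 21.1% of the miR-141 hairpin.

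In the miR-429 hairpin the 5p arm took 0.730%, 0.424% and 2.09%. There the odds ratio after Dox was 5.02, with an interval from 1.14 to 45.7 that rests on 2 reads at 16 hrs SB. This 5p arm was listed only through its reads after Dox, so the listing favoured a higher share after Dox. For miR-200a and miR-141 the intervals of the change after Dox included 1. Within the family, miR-200b was thus the hairpin where a shift toward the 5p arm was best covered by reads. Outside the family, the log2 ratio after Dox was 3.03 for miR-182-3p, the rarer arm, and 0.97 for miR-182-5p. The reverse was seen for miR-140, with -0.53 for the rarer 5p arm and 0.83 for the 3p arm. The share of other hairpins with a shift toward the rarer arm was not computed, so the shift does not set miR-200b apart.

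**Figure D4:**
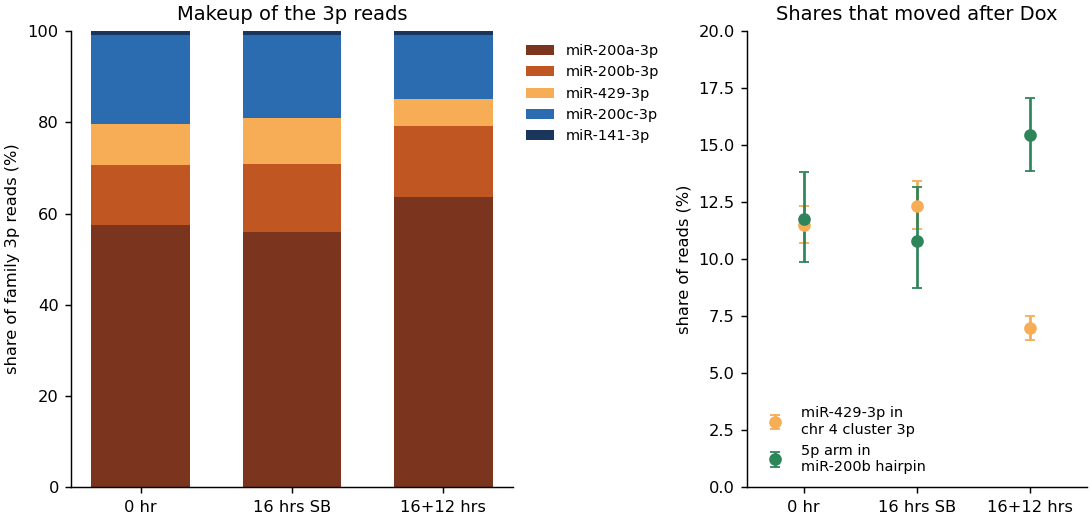
Left, share of each 3p arm in the 3p reads of the family (stacked to 100%) in each library. Right, share of miR-429-3p in the 3p reads of the chromosome 4 cluster and of the 5p arm in the reads of the miR-200b hairpin, with 95% Clopper-Pearson intervals; the former is 6.97% at 16+12 hrs against 12.3% at 16 hrs SB and the latter 15.4% against 10.8%.

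Other epithelial miRNAs were listed to see whether the pattern was shared. The cluster of miR-183, miR-96 and miR-182, which is known from sensory and epithelial cells, had all 6 arms listed and summed to 1511, 1309 and 2652 rpm. With SB, 2 of its 6 arms were called lower, miR-183-5p and miR-183-3p, a share near the 30.2% of all listed miRNAs. After Dox all 6 were called higher, beside 41.7% of all. The summed log2 ratio with SB ranged from -0.45 to 0.02 over the 6 scalings and after Dox from 0.55 to 1.02. miR-182-5p was at 872, 812 and 1588 rpm, and miR-182-3p was at 25.5, 24.9 and 203.2 rpm.

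For each read of that cluster the miR-200 family had 0.458, 0.324 and 0.434 reads. Relative to the cluster, the family thus changed by a factor of 0.708 (0.679 to 0.739) with SB and of 1.34 (1.29 to 1.39) after Dox. Between 16+12 hrs and 0 hr the factor was 0.948 (0.915 to 0.982).

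The other epithelial list held miR-203, miR-205, miR-192, miR-194 and miR-215, with 6 of 9 arms listed, and summed to 316, 319 and 767 rpm. Most of this was miR-192-5p, known from gut and liver, at 282, 290.7 and 712 rpm. miR-203-3p, a skin miRNA known to repress p63, was at 10.1, 4.84 and 21.7 rpm and had the activation profile. miR-205-5p, which like the miR-200 family targets Zeb1 and Zeb2, was at 16.2, 13.5 and 19.2 rpm, not called with SB and called higher after Dox.

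With SB, 1 arm of this list was called lower and 1 higher, the latter being miR-194-5p with 5.29, 8.37 and 12.4 rpm. Over all listed miRNAs 30.2% were called lower and 15.3% higher in this comparison. After Dox, 4 of the 6 arms were called higher and none lower, beside 41.7% and 17.9% of all. Over the 6 scalings the summed log2 ratio ranged from -0.23 to 0.25 with SB and from 0.80 to 1.27 after Dox. Relative to the list, the miR-200 family changed by 0.607 (0.572 to 0.644) with SB and by 1.13 (1.07 to 1.19) after Dox. The fall with SB thus set the miR-200 family apart from the sum of these arms more than the rise did.

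The ES cell clusters served as a check of the labelled cell type. All 14 arms of miR-290 to miR-295 were listed and none was at 0 in a library, and together they took 27.0% to 28.9% of the reads on listed miRNAs. Their summed log2 ratios were -0.33 with SB and 0.53 after Dox, but -0.10 and 0.06 when libraries were scaled to the reads on listed miRNAs. With SB 5 arms were called lower and 3 higher, beside 30.2% and 15.3% of all listed miRNAs. After Dox 7 were called higher and 4 lower, beside 41.7% and 17.9%. Relative to these reads, the miR-200 family changed by 0.771 (0.743 to 0.799) with SB and by 1.88 (1.82 to 1.95) after Dox.

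The miR-302 cluster, active in primed pluripotent cells, had 9 of 10 arms listed and summed to 101, 88.0 and 85.5 rpm. With SB, 3 of the 9 arms were called lower and 2 higher, beside 30.2% and 15.3% of all listed miRNAs. After Dox 3 were called higher and 4 lower, beside 41.7% and 17.9%. The summed log2 ratio ranged from -0.44 to 0.04 with SB and from -0.51 to -0.04 after Dox over the 6 scalings. Each read of this cluster was matched by 6.87, 4.83 and 13.5 reads of the miR-200 family. The change after Dox was 2.79 (2.53 to 3.08).

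Mesenchymal and fibroblast miRNAs moved the other way. Of 31 arms on the list 27 were listed, and they summed to 3992, 8248 and 4550 rpm, with the reads common to miR-199a-3p and miR-199b-3p counted once. With this pair of arms counted once, 20 of 26 arms were called higher with SB and none lower, beside 15.3% and 30.2% of all listed miRNAs. After Dox 20 of the 26 were called lower and 2 higher, beside 17.9% and 41.7%. The opposite profile was met by 18 of the 26, beside 9.67% of all. The summed log2 ratio ranged from 0.80 to 1.28 with SB and from -1.33 to -0.86 after Dox over the 6 scalings.

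miR-199a-3p, a fibroblast marker, was at 547, 1943 and 337 rpm. miR-21-5p, abundant in many cell types, was at 1159, 2486 and 2041 rpm and was not called lower after Dox. No arm of the list was at 0 in any library, and miR-214-3p, for example, had 16, 78 and 1 reads. The part of cells carrying these miRNAs in the values of the miR-200 family was not tested.

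**Figure D5:**
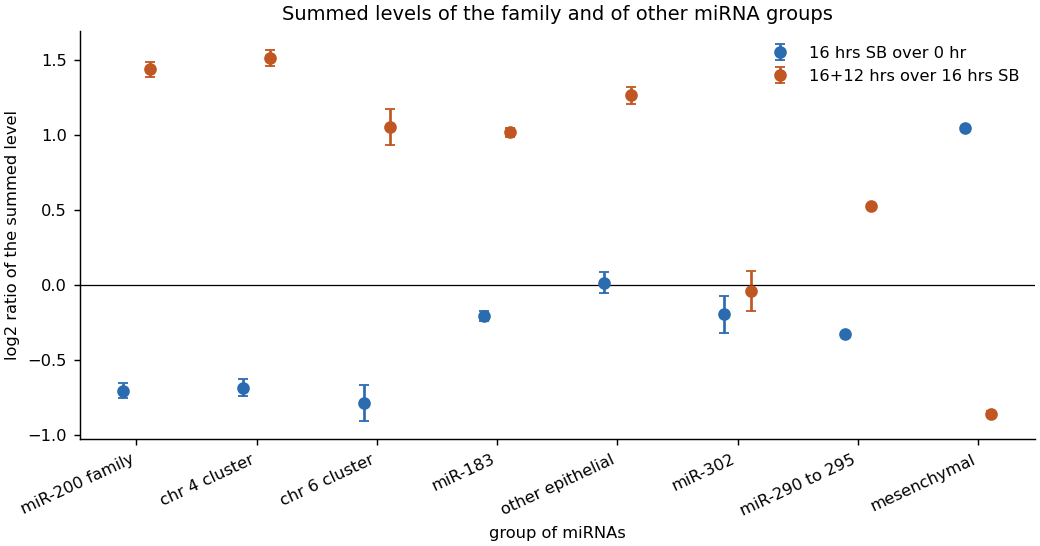
Log2 ratio of the summed level of the miR-200 family, of its clusters and of the other lists, for 16 hrs SB over 0 hr and 16+12 hrs over 16 hrs SB; points are ratios between 1 library each and bars are 95% intervals for counting error. The family and both clusters lie below 0 with SB and above 0 after Dox, and the mesenchymal list lies at 1.05 and -0.86.

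Of 287 other miRNAs with at least 100 reads in each library, miR-1193-5p, miR-128-3p and miR-540-3p were nearest to the summed family, by the Euclidean distance of their 2 log2 ratios over the 3 libraries. The distance was 0.126 for miR-1193-5p, which was at 23.7, 15.9 and 42.1 rpm. miR-128-3p, known from neurons, was at 982, 547 and 1450 rpm, with a distance of 0.143. miR-540-3p was at 75.7, 49.8 and 121 rpm, with a distance of 0.190.

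miR-26a-5p, the miRNA used as a reference in the qPCR of the study, was at 647, 766 and 798 rpm and was not called in any comparison. With this reference the summed log2 ratios of the miR-200 family were -0.95 with SB, 1.38 after Dox and 0.43 for 16+12 hrs over 0 hr.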

How the data were processed

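Per the study, the authors sequenced each library on an Illumina GAII and give its reads over 2 runs. Per the methods, they clipped adaptors with FASTX, discarded reads of up to 16 bases and used Bowtie 0.12.7 to align the others to miRBase release 18, mature sequences before hairpins, with perfect matches only. Reads that matched several miRNAs went to the one nearest in length, or to each. The deposited values are RPM, reads per 1000000 of the library, for miRNAs with a sum of at least 10 reads.

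Whole reads were recovered from the steps of the RPM values (largest deviation 3.98e-05 reads), and totals are those the steps imply, which differ from the totals stated in the study. Ratios are of RPM, without a pseudocount. Intervals are exact at 95%, Poisson for levels, Clopper-Pearson for shares and for the ratio of 2 read numbers, and conditional odds ratios for changes between libraries, computed with Python 3.11.15, NumPy 2.4.6, pandas 2.3.3 and SciPy 1.17.1, with plots by matplotlib 3.10.9. Calls used the fold and Z-score thresholds of the study. The scripts were tested on simulated data. Hairpins were placed with GENCODE M21.

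The members and lists were chosen with earlier results of these data known. The miRNAs named are all listed arms of the family, members of the lists, miR-26a-5p and the 3 miRNAs nearest in ratio with 100 reads per library. The alternatives were 5 other scalings (reads on listed miRNAs, median of ratios, TMM that trims 30% of ratios and 5% of levels, quantile normalization, miR-26a-5p), 1 RPM added, folds of 1.5 and 2, the fold alone, a minimum of 100 reads and other sums. With 1 library per condition, no model across miRNAs was fitted and no p-value was computed.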

Additional observations from a re-analysis of the deposited data

How the results depend on the processing

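The log2 ratios of the summed family kept their sign under each alternative tried, and no comparison in which an arm was called gave that arm the other sign under the 5 other scalings. For the summed family, the log2 ratios of 16 hrs SB over 0 hr, 16+12 hrs over 16 hrs SB and 16+12 hrs over 0 hr were -0.47, 0.97 and 0.50 with libraries scaled to the reads on listed miRNAs, -0.52, 1.06 and 0.54 by the median of ratios, -0.50, 1.05 and 0.55 by TMM, -0.53, 1.14 and 0.61 by quantile normalization, -0.95, 1.38 and 0.43 scaled to miR-26a-5p, and -0.65, 1.20 and 0.55 without miR-200a-3p. The sum thus rests in part on that arm. The number of arms with the activation profile was 3 with reads on listed miRNAs, 3 by TMM and 0 at a fold of 2, where 5.92% of all listed miRNAs kept it. It was 4 at a fold of 1.5, beside 14.6% of all, and 9 by the fold alone, beside 31.0% of all. The 9 include miR-429-5p, which was listed only through its 16+12 hrs reads. With both arms of each hairpin, miR-200a and miR-141 held 62.7% of the reads at 16+12 hrs. The scalings of single arms and of the other lists were added after the data were seen. No paired analysis was possible because each condition had 1 library and no result came from a test of conditions, and for the same reason no library could be left out. Depth limits miR-141-5p, miR-200a-5p and miR-429-5p, which had 2 to 23 reads per library.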
